A study of Mus musculus with 6 samples.

Results

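The insulin-like growth factor (IGF) binding proteins are a family of 7 secreted proteins, encoded in the mouse by Igfbp1 to Igfbp7. They were taken by gene symbol from the count table of each liver library, as 7 of the 24982 genes listed there. Of the 7, 6 had enough reads to be tested for a difference between the diets and Igfbp6 had not. The libraries are polyA RNA of whole liver from male C57BL/6NJ mice with no genetic change named in the labels. A group of 3 had received a high fat and high sugar diet, with the sugar given in the drinking water, and a group of 3 had received chow, both for 54 weeks. The labels call them separate samples and name neither the animals nor a batch, so that each p-value reflects sample-to-sample spread alone, which may be technical. The series is about a diet model of fatty liver inflammation that goes on to liver cancer, and whether tumour tissue entered a sample is not stated. The names of the high fat high sugar tables say that they are combined and those of the chow tables do not. Those of the chow tables give wt (wild type) and male, while those of the high fat high sugar tables give no genotype. What was combined is not stated, and any difference in handling between the diets cannot be told apart from the diet.

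IGFs made by the liver circulate almost entirely bound to these proteins, which prolong their life in blood and control how much reaches the IGF receptor. Igfbp3 carries most of the circulating hormone in a complex with the acid-labile subunit, the product of Igfals. Igfbp1 is a hepatocyte gene that insulin turns off through the transcription factor FOXO1, so that its product follows fasting and feeding. Igfbp2 and Igfbp4 are further hepatocyte products, and Igfbp5, Igfbp6 and Igfbp7 are known mainly from stromal and vascular cells. Igfbp7 binds IGFs only weakly and is counted as a relative by its amino-terminal domain.

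Gene counts came to between 16565335 and 20585366 in a library. The floor was set at 3 counts, which is 0.115 to 0.202 CPM (counts scaled to library size, with TMM factors). Of 12949 genes tested with edgeR's quasi-likelihood test, 1428 (11.0%) were higher and 468 (3.61%) lower at an adjusted p under 0.05. High fat high sugar replicate 2 stood apart: its albumin gene Alb was at 24173 CPM, against 71089 and 50340 CPM (rounded) in the other libraries of its diet and 69128 to 89699 CPM in chow. Liver tissue was evident from Alb, Ttr and Apoa1 in every library, while the urea cycle gene Ass1, normally abundant in liver, had only 0.115 to 0.620 CPM after the high fat high sugar diet and 0.990 to 1.95 CPM on chow. Reads of whole liver cannot tell fewer cells of a type from less RNA per cell.

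Positions below are those of GENCODE M21 on GRCm38, the assembly that mm10 denotes. The 7 genes lie at 5 places. Igfbp1 (chromosome 11, 7197782 to 7202546, plus strand) and Igfbp3 (chromosome 11, 7206086 to 7213923, minus strand) point towards each other across 3539 bp with no gene between them. Igfbp2 (chromosome 1, 72824503 to 72852474, plus strand) and Igfbp5 (chromosome 1, 72857932 to 72874884, minus strand) are arranged alike across 5457 bp. Igfbp4 (chromosome 11, 99041244 to 99054392), Igfbp6 (chromosome 15, 102144362 to 102149511) and Igfbp7 (chromosome 5, 77349240 to 77408041, minus strand) stand alone. Of the 7, Igfbp7 is the gene whose span is crossed by other genes, the RNA polymerase II subunit gene Polr2b and the antisense transcript Gm34648, both on the opposite strand. Exons of Polr2b cover 85 of the 1209 exon bases of Igfbp7, and since it is not stated whether counting used strand, reads of those bases could belong to either gene.

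The promoters of Igfbp1 and Igfbp7 are shown because Igfbp1 varied most between libraries and Igfbp7 was the gene that passed the test. Each is the 250 bases before the RefSeq start, 5′ to 3′ on the gene's strand (build GRCm38.p6). Capitals mark the insulin response element in Igfbp1 and the GC box GGGCGG, on either strand, in Igfbp7. The Igfbp1 window is chr11:7197537-7197786 (plus strand) and the Igfbp7 window is chr5:77408046-77408295 (minus strand).
Igfbp1: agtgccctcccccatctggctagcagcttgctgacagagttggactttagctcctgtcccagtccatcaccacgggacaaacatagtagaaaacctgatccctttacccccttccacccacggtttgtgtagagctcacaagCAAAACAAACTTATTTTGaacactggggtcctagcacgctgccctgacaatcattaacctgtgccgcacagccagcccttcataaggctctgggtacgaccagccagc
Igfbp7: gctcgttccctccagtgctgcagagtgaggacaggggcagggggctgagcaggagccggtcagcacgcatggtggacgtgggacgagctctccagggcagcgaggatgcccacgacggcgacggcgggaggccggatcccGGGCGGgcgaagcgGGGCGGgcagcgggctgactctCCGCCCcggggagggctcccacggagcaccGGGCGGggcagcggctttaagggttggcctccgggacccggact

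The element of Igfbp1 is CAAAACAAACTTATTTTG, which lies 108 to 91 bases before the start. It joins CAAAACA and TATTTTG, near-inverted copies of the short site at which FOXO1 is known to act. Searched on both strands as CAAAACA, any 4 letters and TATTTTG, it was found in 1 of 32841 mouse promoter windows of 250 bases, that of Igfbp1. The spelling is that of the known Igfbp1 element, so that finding it there is no result. CAAAACA alone, which is part of that element, was in 5.56% of all windows and in Igfbp1 alone among 8 windows of the family (Igfbp2 has 2). GGGCGG was in 32.7% of all windows, 4 times in Igfbp7 and 3 times in the first window of Igfbp2. The STAT site TTCNNNGAA (7.02% of all windows) and the FOXO core GTAAACA (3.17%) matched none of the 8 windows. The windows of Igfbp7 and Igfbp3 had 74.0% and 73.2% G and C with 26 and 32 CpG, and that of Igfbp1 had 53.2% with 5, against medians of 52.4% and 6 over all windows.

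Of the 6 tested members, 1 was higher in high fat high sugar liver, Igfbp7, and 0 were lower (edgeR quasi-likelihood test with Benjamini-Hochberg adjustment over all genes). Among all tested genes 11.0% were higher and 3.61% lower, so the share of the family that was called is near the background. At an unadjusted p under 0.05 there were 4 members, Igfbp7 with a higher and Igfbp2, Igfbp4 and Igfbp5 with a lower fitted level. The libraries of the diets did not overlap for these 4, with 1 higher and 3 lower, a separation that 21.5% (higher) and 18.0% (lower) of all tested genes also showed. DESeq2, which gave all 7 members an adjusted p, called 1 higher (Igfbp7) and 3 lower (Igfbp2, Igfbp4 and Igfbp5), where it called 13.0% of 14398 genes higher and 6.99% lower. On counts simulated with edgeR's own fitted spread and its filtered genes, DESeq2 made 22 false calls among 176, against 8 among 163 for edgeR. Such counts cannot rank the tools on the real data. In the simulation both tools recovered 57% of the genes changed 2-fold. Igfbp1 and Igfbp3 overlapped between the diets.

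**Figure D1:**
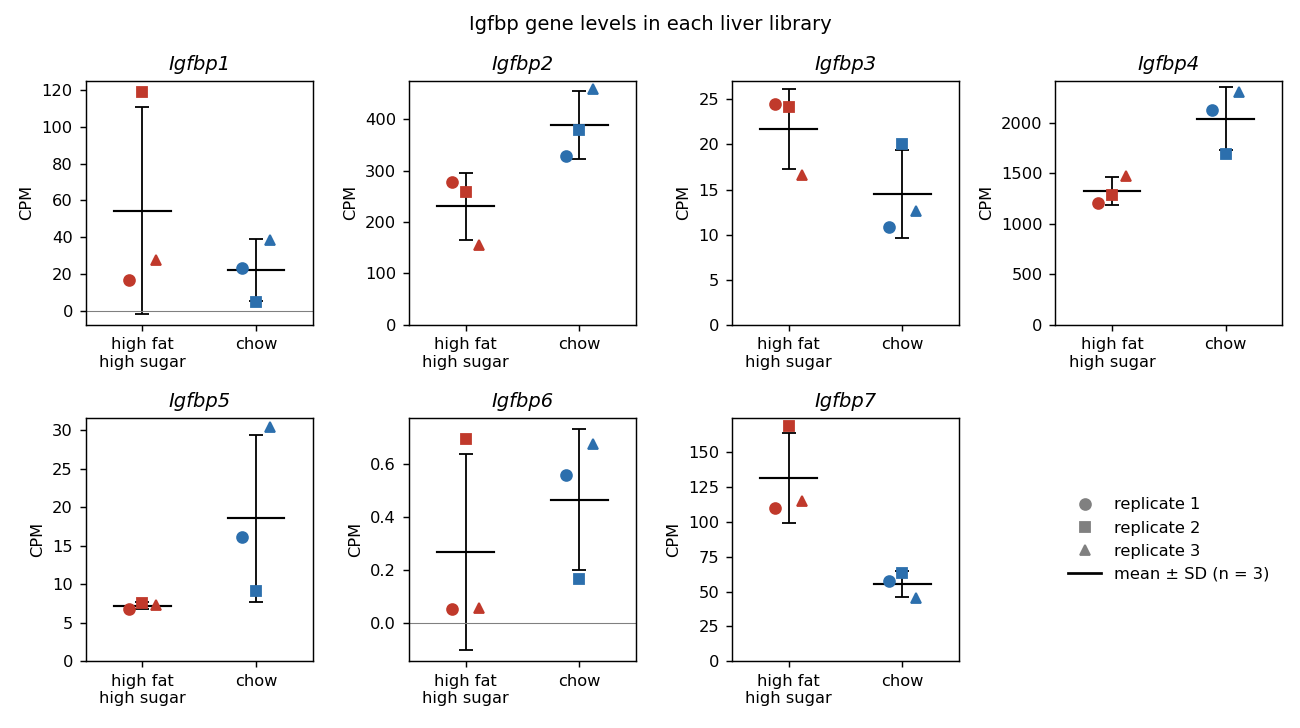
CPM of each Igfbp gene in each library, high fat high sugar on the left and chow on the right. Markers are replicates, and bars give the mean and SD of 3 libraries. Igfbp7 lies at 109.8 CPM or more after the high fat high sugar diet and at 63.2 CPM or less on chow, while Igfbp1 has a single high library at 119 CPM.

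Igfbp7, a binding protein of vessel walls and activated fibroblasts, was at 109.8, 168 and 115 CPM in high fat high sugar replicates 1, 2 and 3. In chow replicates 1, 2 and 3 it was at 57.3, 63.2 and 45.3 CPM. All 3 high fat high sugar libraries were above all 3 chow libraries, with replicate 2 the highest. The means were 131 ± 32.3 CPM in high fat high sugar liver and 55.3 ± 9.13 CPM in chow liver (SD, n = 3 each). Igfbp7 rose 2.37-fold, a log2 fold change of 1.24 ± 0.20 (SE) with a 95% interval of 0.77 to 1.72 (edgeR quasi-likelihood, adjusted p = 0.0132). Leaving out replicate 2 of the high fat high sugar diet gave 1.03 (edgeR, adjusted p = 0.00602). Without chow replicate 3 it was 1.11 and missed the threshold (edgeR, adjusted p = 0.0698), in a fit that called 4 genes higher among all tested. Polr2b on the opposite strand went the other way, at 52.7 ± 6.84 CPM in high fat high sugar liver and 72.1 ± 11.6 CPM in chow liver (SD, n = 3 each), and did not pass (edgeR, adjusted p = 0.0892).

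Markers of the cells that Igfbp7 is known from moved with it. Of 14 stellate cell and fibroblast markers, 11 rose, and their summed level was 702 to 1226 CPM in high fat high sugar liver and 264 to 318 CPM in chow. Of 12 endothelial markers, 7 rose, with sums of 445 to 508 CPM in high fat high sugar liver and 283 to 344 CPM in chow. Of 9 macrophage markers, 6 rose and 2 fell (sums of 682 to 1073 CPM after the high fat high sugar diet, 246 to 354 CPM on chow), and 5 of 7 bile duct markers rose (23.6 to 42.4 CPM and 15.7 to 24.7 CPM in the same order). Of 4 smooth muscle markers 2 were tested and 1 rose, with sums of 10.1 to 18.4 CPM in high fat high sugar liver and 6.06 to 7.75 CPM in chow. Of 7 lymphocyte markers 6 were tested and 1 rose, with 5.70 to 10.9 CPM after the high fat high sugar diet and 3.03 to 5.01 CPM on chow. Of 6 mesothelial markers 3 were tested and 1 rose, with sums of 3.91 to 7.08 CPM after the high fat high sugar diet and 1.92 to 5.06 CPM on chow. No list had a marker at 0 in all libraries of a diet. With chow replicate 3 left out edgeR called 0 higher in these 7 lists, while 12 of the stellate and fibroblast, 8 of the endothelial and 8 of the macrophage markers had an unadjusted p below 0.05. With chow replicate 2 left out 4 stellate and fibroblast, 4 endothelial, 4 macrophage and 2 bile duct markers rose. Leaving out chow replicate 1, or high fat high sugar replicate 1, reduced the endothelial markers that rose to 3 each, and chow replicate 1 the bile duct markers to 2. The single smooth muscle, lymphocyte and mesothelial markers that rose (Tagln, Ncr1 and Wt1) did not pass without chow replicate 2, nor Tagln without chow replicate 1, nor Wt1 without high fat high sugar replicate 1. Their part in the change of Igfbp7 was not tested.

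The level of Igfbp7 was set against each of these 7 sums within each library, as the log2 of its CPM over the summed CPM of a list. Against the endothelial list the ratio came to -2.17, -1.40 and -2.14 in replicates 1, 2 and 3 of the high fat high sugar diet, and to -2.30, -2.44 and -2.71 in chow replicates 1, 2 and 3. Igfbp7 was thus higher per endothelial marker RNA in all high fat high sugar libraries, by most in replicate 2. Against the stellate and fibroblast list it was -2.68, -2.87 and -2.64 after the high fat high sugar diet, and -2.47, -2.31 and -2.54 on chow. Here the high fat high sugar libraries were all slightly lower. This list holds the collagen genes Col1a1 and Col3a1, with log2 fold changes of 4.51 and 3.20, larger than that of Igfbp7. Their means were 41.9 and 112 CPM in high fat high sugar liver, with 90.2 and 217 CPM in replicate 2. In chow liver the means were 1.82 and 12.2 CPM. Whether the ratio stays apart between the diets without these collagen genes was not tested. Against smooth muscle markers, also of the vessel wall, it was 3.21, 3.19 and 3.52 after the high fat high sugar diet. On chow it was 2.98, 3.03 and 2.90, so that all high fat high sugar libraries were higher. Most of this sum was Tagln, at means of 10.6 CPM in high fat high sugar liver and 4.47 CPM in chow. Myh11 was at 2.59 and 2.43 CPM in the same order, with overlap. The differences of mean log2 ratios were 0.58 for the endothelial, -0.29 for the stellate and fibroblast and 0.34 for the smooth muscle list. For the lymphocyte list the difference was 0.33, also without overlap. With overlap between the diets it was -0.21 for the macrophage, 0.59 for the bile duct and 0.68 for the mesothelial list. These ratios were added after the levels had been seen and carry no test.

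**Figure D2:**
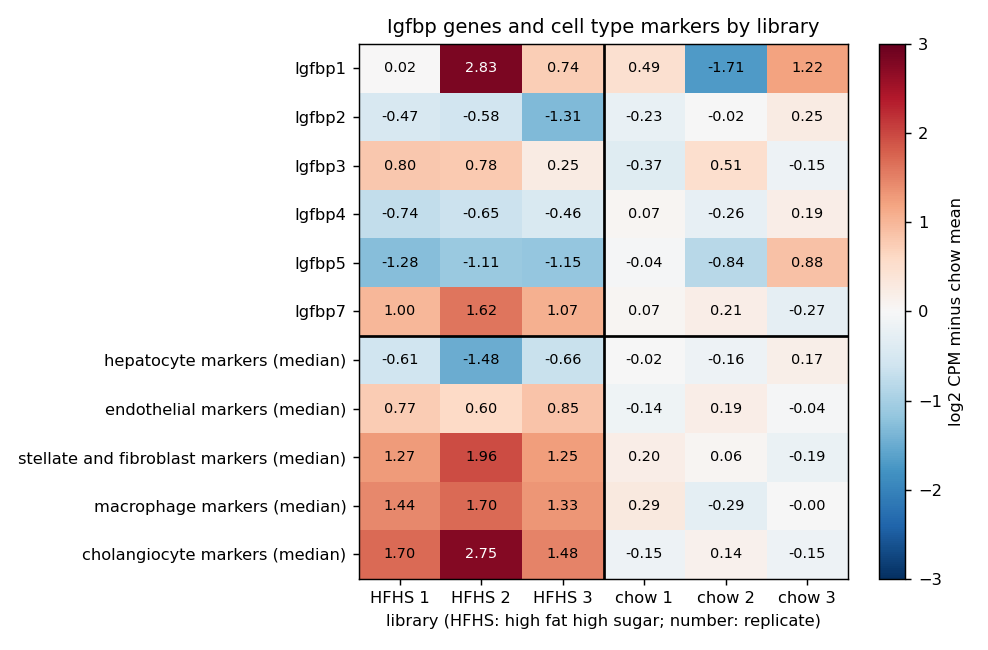
Log2 CPM minus the chow mean for the 6 tested Igfbp genes (top) and the median of 5 marker lists (bottom), with high fat high sugar libraries on the left and chow libraries on the right. Igfbp7 is at 1.00, 1.62 and 1.07 in the high fat high sugar libraries, beside stellate and fibroblast medians of 1.27, 1.96 and 1.25. Macrophage medians (1.44, 1.70 and 1.33) and cholangiocyte (bile duct) medians (1.70, 2.75 and 1.48) are also highest in replicate 2. Endothelial medians (0.77, 0.60 and 0.85) and hepatocyte medians (-0.61, -1.48 and -0.66) are lowest there. Igfbp1 varies from library to library within both diets.

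Igfbp4, known as an inhibitor of IGF action and a substrate of the protease PAPP-A, was the most abundant member. Its levels were 1209, 1287 and 1474 CPM in high fat high sugar replicates 1, 2 and 3, and at 2124, 1696 and 2307 CPM in chow replicates 1, 2 and 3. Every high fat high sugar library was below every chow library, by the least between high fat high sugar replicate 3 and chow replicate 2. The log2 fold change was -0.63 ± 0.20 (SE), with a 95% interval of -1.10 to -0.15, and did not pass (edgeR quasi-likelihood, adjusted p = 0.0781). DESeq2 gave -0.64 (adjusted p = 0.00201). With library size as the only scaling it was -0.36, where the median of all genes shifted upwards by 0.27.

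Igfbp2, a plasma carrier made by hepatocytes that is known to be low in obesity, was at 278, 258 and 155 CPM in high fat high sugar replicates 1, 2 and 3. It was at 329, 380 and 459 CPM (rounded) in chow replicates 1, 2 and 3. The diets did not overlap, and high fat high sugar replicate 3 was the lowest library. The log2 fold change was -0.76 ± 0.25 (SE), with a 95% interval of -1.34 to -0.18, and missed the threshold (edgeR, adjusted p = 0.0796). DESeq2 put it past the threshold at -0.77 (adjusted p = 0.0157), and scaling by library size gave -0.47. Igfbp2 and Igfbp4 come from hepatocytes, and 8 hepatocyte markers summed to 38661 to 91775 CPM in high fat high sugar liver and 96109 to 121141 CPM in chow, with a median log2 fold change of -0.71. By edgeR 0 of these 8 were called, with 4 at an unadjusted p under 0.05, and DESeq2 called 4 lower. With another scaling (RLE), or with any 1 high fat high sugar library left out, edgeR called 1 lower. The 4 at an unadjusted p under 0.05 by edgeR include Ass1, low in every library as given above. Alb made up most of each sum, and Apoa1 had a log2 fold change of -0.03. The part of these cells in the levels of Igfbp2 and Igfbp4 was not tested.

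Igfbp5, a matrix-bound member known from fibroblasts and muscle, was at 6.77, 7.58 and 7.37 CPM in high fat high sugar replicates 1, 2 and 3. It was at 16.1, 9.18 and 30.4 CPM in chow replicates 1, 2 and 3. The high fat high sugar libraries lay close together below chow libraries that spread 3.31-fold. On the log2 scale the chow spread of Igfbp5 was an SD of 0.86, larger than that of 97.3% of tested genes, and the high fat high sugar spread was 0.08, larger than that of 11.2%. The log2 fold change of -1.35 ± 0.40 (SE) missed the threshold (edgeR, adjusted p = 0.0650), with a 95% interval of -2.30 to -0.40. It was -0.81 without chow replicate 3 (edgeR, adjusted p = 0.132) and -1.69 without chow replicate 2, where it passed (edgeR, adjusted p = 0.0413). DESeq2 called it at -1.37 (adjusted p = 0.00430). The stellate and fibroblast markers, of cells that can make Igfbp5, summed to higher levels in high fat high sugar liver, as given above, and their part in the level of Igfbp5 was not tested.

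Igfbp3, the main carrier of circulating IGF, known in rat liver mainly from non-parenchymal cells, was at 24.5, 24.1 and 16.6 CPM in high fat high sugar replicates 1, 2 and 3. Its levels were 10.8, 20.1 and 12.7 CPM in chow replicates 1, 2 and 3. Chow replicate 2 lay above high fat high sugar replicate 3, so that the diets overlapped. The log2 fold change was 0.58 ± 0.26 (SE), with a 95% interval of -0.02 to 1.19 (edgeR quasi-likelihood, adjusted p = 0.167). Without chow replicate 2 it was 0.88 (edgeR, adjusted p = 0.0644).

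Igfbp1 was at 16.8, 119 and 27.7 CPM in high fat high sugar replicates 1, 2 and 3, and at 23.3, 5.0 and 38.7 CPM in chow replicates 1, 2 and 3. High fat high sugar replicate 2 was the highest and chow replicate 2 the lowest, and the other 4 libraries of both diets lay among each other. Within a diet the highest library exceeded the lowest 7.05-fold after the high fat high sugar diet and 7.72-fold on chow. These spreads, SDs of 1.46 and 1.52 on the log2 scale, were larger than those of 99.2% and 99.6% of tested genes. The log2 fold change was 1.30 ± 0.95 (SE), with a 95% interval of -1.02 to 3.61 (edgeR, adjusted p = 0.397). It was 0.01 when the highest library was left out. The data thus fix neither the size nor the direction of a diet difference for Igfbp1.

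The order of Igfbp1 over the libraries was set beside that of Trib3, Irs2, G6pc and Pck1, known to respond to insulin or stress. They and Nr1i3, which was set beside Igfbp1 too, are a part of the list of its regulators and co-targets given below. Trib3, a stress-induced inhibitor of insulin signalling, was at 2.69, 16.6 and 4.64 CPM in high fat high sugar replicates 1, 2 and 3, and at 3.73, 11.7 and 4.65 CPM in chow replicates 1, 2 and 3. It was highest in high fat high sugar replicate 2, as Igfbp1 was, but second in chow replicate 2, where Igfbp1 was lowest. Irs2 too was highest in high fat high sugar replicate 2 (35.7 CPM) and second in chow replicate 2 (30.0 CPM). G6pc was lowest in high fat high sugar replicate 2 (204 CPM), where Igfbp1 was highest. Pck1, the gluconeogenic enzyme gene that FOXO1 also drives, fell to 752, 1061 and 1997 CPM after the high fat high sugar diet, against 3881, 2945 and 4844 CPM on chow (log2 fold change -1.62, edgeR adjusted p = 0.0344). Pck1 was highest in chow replicate 3, and had the order of Igfbp1 within chow but not within the high fat high sugar diet. It missed the threshold without each single library except high fat high sugar replicate 3. Nr1i3 had the order of Igfbp1 within each diet, at 99.8, 199 and 159 CPM in high fat high sugar replicates 1, 2 and 3. In chow replicates 1, 2 and 3 Nr1i3 was at 295, 205 and 366 CPM, each above every high fat high sugar library. It did not pass (edgeR, adjusted p = 0.0799). Whether any of these genes follows Igfbp1 was not tested.

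Igfbp6, which prefers IGF-II, had 1, 18 and 1 counts in high fat high sugar replicates 1, 2 and 3 and 10, 3 and 10 in chow replicates 1, 2 and 3. In 2 libraries it was under the floor of 3 counts. Over the groups this is 20 counts in high fat high sugar liver and 23 in chow, or 0.701 times the chow level after scaling (95% interval 0.365 to 1.34 from counting error only). High fat high sugar replicate 2 held all but 2 of the counts of its diet, and the interval allows a ratio on either side of 1.

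**Figure D3:**
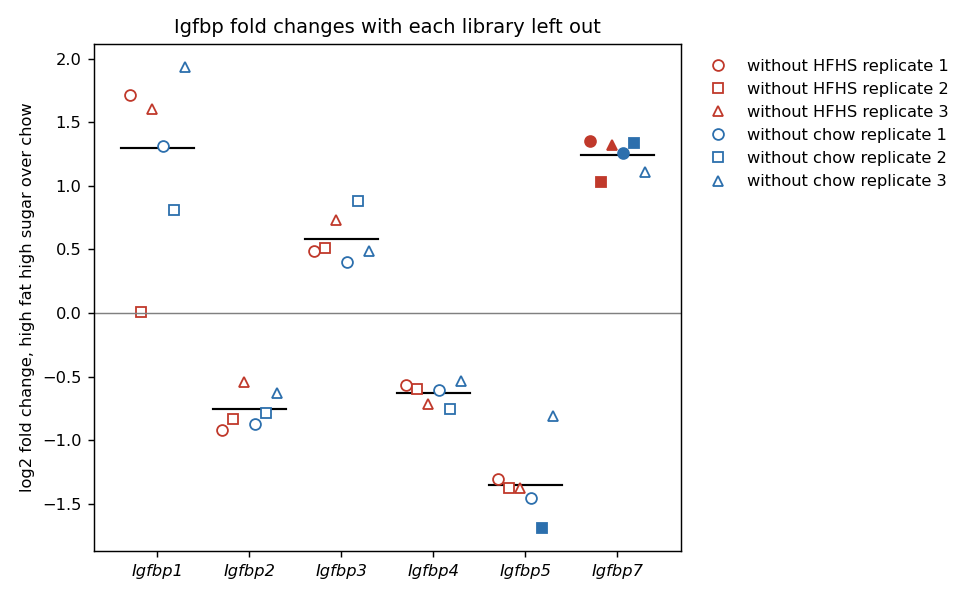
Log2 fold change, high fat high sugar over chow, of the 6 tested Igfbp genes with each library left out in turn. Black lines give the value with all libraries, and filled markers an adjusted p under 0.05 (edgeR). Igfbp7 spans 1.03 to 1.35 and Igfbp1 0.01 to 1.94.

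To compare members with each other, CPM was divided by exon length in kilobases. By this measure Igfbp4 led in every library, followed by Igfbp2 and Igfbp7 in that order, and Igfbp6 was last in every library. The mean levels per kilobase in high fat high sugar and chow liver were 337 ± 34.7 and 520.4 ± 79.9 for Igfbp4 (SD, n = 3 each). They were 158 ± 45.2 and 267 ± 45.0 for Igfbp2, and 108 ± 26.7 and 45.7 ± 7.55 for Igfbp7. Igfbp2 and Igfbp7 overlapped after the high fat high sugar diet, at 106 to 191 and 90.8 to 139, and were apart on chow, at 225 to 314 and 37.5 to 52.3. Igfbp1 came next by mean, at 35.7 ± 36.7 and 14.6 ± 11.0. On chow it overlapped with Igfbp3, which had means of 6.96 ± 1.42 and 4.64 ± 1.56, and Igfbp3 overlapped with Igfbp5 (1.21 ± 0.07 and 3.09 ± 1.80).

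Igfbp7 made up 14.9%, 19.0% and 15.8% of the summed per-kilobase level of the family in high fat high sugar replicates 1, 2 and 3. Its share was 5.68%, 6.92% and 3.85% in chow replicates 1, 2 and 3. All high fat high sugar libraries were above chow, by 11.1 percentage points on average (two-sided exact permutation p = 0.1, the smallest that 3 against 3 allows). Igfbp3 took 1.29%, 1.05% and 0.884% in replicates 1, 2 and 3 of the high fat high sugar diet and 0.415%, 0.848% and 0.415% in chow replicates 1, 2 and 3, also without overlap (exact permutation p = 0.1). Igfbp4 held 50.5%, 44.9% and 62.4% after the high fat high sugar diet and 64.8%, 57.2% and 60.3% on chow, with overlap. Igfbp4 exceeded Igfbp7 by 3.39, 2.36 and 3.95 times in the high fat high sugar libraries and by 11.4, 8.26 and 15.7 times in the chow libraries.

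**Figure D4:**
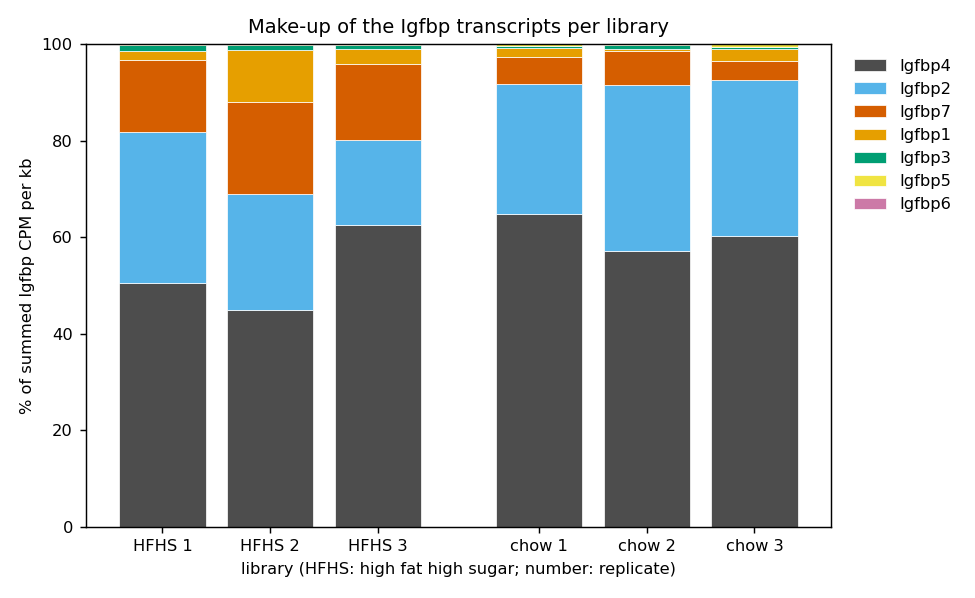
Share of each Igfbp gene in the summed CPM per kilobase of the family, 1 bar per library, with high fat high sugar libraries on the left and chow libraries on the right. Igfbp7 takes 14.9% to 19.0% after the high fat high sugar diet and 3.85% to 6.92% on chow.

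Summed over the 7 members, the family was at 609, 731 and 602 CPM per kilobase in high fat high sugar replicates 1, 2 and 3, and at 836, 756 and 975 in chow replicates 1, 2 and 3. The liver's main hormone of the axis, Igf1, was at 44.3, 45.5 and 70.9 CPM per kilobase after the high fat high sugar diet and at 85.4, 67.2 and 91.0 on chow. The ratio of the family to Igf1 came to 13.7, 16.1 and 8.49 in replicates 1, 2 and 3 of the high fat high sugar diet and to 9.78, 11.2 and 10.7 in chow replicates 1, 2 and 3, so that the diets overlapped.

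Among the ligands, receptors and carriers of the axis, 1 of 9 tested genes rose and 0 fell, with a median log2 fold change of -0.07 against -0.02 over all tested genes. Of all tested genes 11.0% rose and 3.61% fell, so the share of this list that rose is near the background. The same background applies to the counts of the other lists. The gene of this list that rose was Grb10, an adaptor that restrains insulin and IGF receptors, at 1.23 ± 0.25 (SE; edgeR, adjusted p = 0.0212). Without chow replicate 1 or 3 it missed the threshold, and 0 of the list were then called, with 2 at an unadjusted p under 0.05 in each. Igf1 had a log2 fold change of -0.60 ± 0.24 and Igfals one of -0.72 ± 0.23 (SE), and neither passed (edgeR, adjusted p = 0.130 and 0.0737). Igfals was at 60.1, 68.2 and 107.9 CPM after the high fat high sugar diet and at 136, 111 and 142 CPM in chow, without overlap. Both passed without high fat high sugar replicate 3 (-0.86 for Igf1 and -1.02 for Igfals). The receptor genes did not pass, with log2 fold changes of 0.85 ± 0.34 for Igf1r, 0.03 ± 0.15 for Igf2r and -0.32 ± 0.11 for Insr (SE). Igf1r passed without high fat high sugar replicate 3 (1.13). DESeq2 called 1 gene of the list higher and 3 lower, Igf1 (adjusted p = 0.0417), Igfals (adjusted p = 0.0200) and Insr (adjusted p = 0.0146). With library size only Insr was at -0.05. Igf2, a fetal hormone gene, had 8 counts in high fat high sugar liver and 14 in chow.

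**Figure D5:**
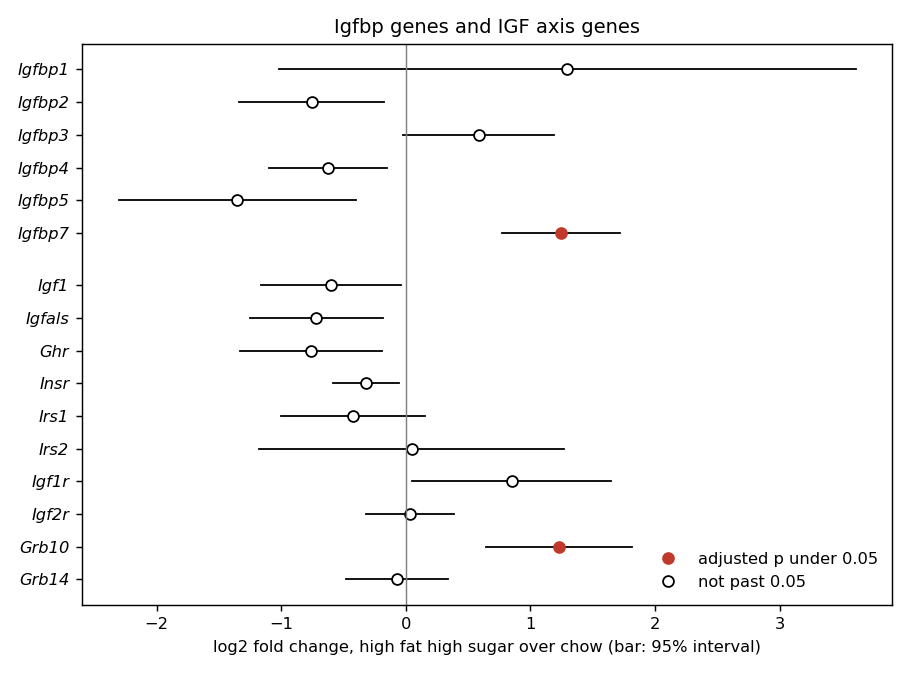
Log2 fold change, high fat high sugar over chow, with its 95% interval for the tested Igfbp genes (top) and genes of the IGF ligand, receptor and carrier list with the growth hormone receptor Ghr (bottom). Filled points have an adjusted p under 0.05 (edgeR): Igfbp7 at 1.24 and Grb10 at 1.23.

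Of the proteases that cut IGF binding proteins and the inhibitors of these proteases, 5 of 10 tested rose and 0 fell, with a median log2 fold change of 1.38. Those that rose were the serine proteases Htra1 (2.30 ± 0.33) and Htra3 (2.67 ± 0.46), the metalloproteases Mmp2 (3.11 ± 0.60) and Adam12 (1.57 ± 0.41), and Stc2, whose product blocks PAPP-A. Stc2 had 41 counts in high fat high sugar liver and 1 in chow, which is under the floor of 3 counts. The ratio was 33.1 times the chow level, with a wide interval (95% interval 5.61 to 1338 from counting error only). Stc2 passed the test (edgeR, adjusted p = 0.0132), but not without chow replicate 2 or 3. Stc1, a related PAPP-A inhibitor, had 30 counts in high fat high sugar liver and 0 in chow, at least 8.07-fold higher when the chow group is set to 3 counts in all. Pappa itself, the gene of PAPP-A, had 20 counts in high fat high sugar liver and 0 in chow, at least 5.38-fold higher on the same basis, but 15 of the 20 lay in high fat high sugar replicate 2. Neither Stc1 nor Pappa had enough reads to be tested. Adam12 missed the threshold with DESeq2, limma-voom, the replicate block, no filter on low counts, and any library left out except high fat high sugar replicate 3. Mmp2 missed it with limma-voom and without any 1 chow library. The abundant hepatocyte products Plg and F2, which make plasmin and thrombin, had log2 fold changes of -0.54 and -0.48 and did not pass. With chow replicate 2 left out 1 gene of this list rose, and with chow replicate 3 left out 0 did by edgeR, with 7 at an unadjusted p under 0.05. DESeq2 called 7 higher and 2 lower.

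Among relatives with the same amino-terminal domain, 4 of 7 tested rose and 0 fell, with a median of 1.41. They were Esm1, an endothelial proteoglycan gene (2.57 ± 0.26), Wisp1 (1.11 ± 0.30), and Htra1 and Htra3, which both lists hold. Wisp1 (edgeR, adjusted p = 0.0466) missed the threshold with DESeq2, limma-voom, the replicate block, no filter on low counts, and any library left out except high fat high sugar replicate 3. Ctgf, known as a fibrosis gene, was at 7.65, 25.7 and 4.47 CPM in high fat high sugar replicates 1, 2 and 3 and at 5.12, 4.29 and 4.92 CPM in chow replicates 1, 2 and 3, with overlap, and did not pass. With chow replicate 2 left out 2 of these relatives rose, and with chow replicate 3 left out 0 did by edgeR, with 4 at an unadjusted p under 0.05.

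Of 9 tested genes of growth hormone signalling, which drives hepatic Igf1 and Igfals, 1 fell, the transcription factor gene Stat5b (-0.41 ± 0.11, edgeR adjusted p = 0.0474), and 0 rose. Stat5b missed the threshold with any 1 of the 6 libraries left out. It was -0.32 with upper-quartile scaling and -0.14 with library size only, and passed in neither. The receptor gene Ghr was at 576, 332 and 602 CPM in high fat high sugar replicates 1, 2 and 3 and at 825, 882 and 852 CPM in chow replicates 1, 2 and 3. The diets were apart, with high fat high sugar replicate 2 the lowest, and the test was missed (edgeR, adjusted p = 0.0766) but met without that library, at -0.52 (edgeR, adjusted p = 0.0432). DESeq2 called 2 genes of the list lower, Stat5b and Ghr, the receptor gene at -0.78 (adjusted p = 0.00845). With chow replicate 1 left out edgeR called 1 gene of the list higher and 0 lower, with 5 at an unadjusted p under 0.05.

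Of 18 regulators and co-targets of Igfbp1, 1 rose, 2 fell and 15 did not pass, with a median of -0.29. The hepatokine gene Fgf21 rose by 4.44 ± 0.36 on the log2 scale (edgeR, adjusted p = 0.00536) and passed without each library in turn. Pck1 fell, as given above, and so did Foxo4, a relative of Foxo1, by 0.41 on the log2 scale (SE 0.11; edgeR, adjusted p = 0.0451). Foxo4 was -0.32 with upper-quartile scaling and -0.15 with library size only. It passed in neither, nor with the replicate block, limma-voom or the loss of any library but high fat high sugar replicate 3. Foxo1 itself was at 53.2 ± 0.44 CPM in high fat high sugar liver and 62.3 ± 13.2 CPM in chow liver (SD, n = 3 each) and did not pass, with a log2 fold change of -0.23 that was 0.046 with library size only. With high fat high sugar replicate 1 or 2, or chow replicate 2 or 3, left out 0 of the list fell, while 8, 6, 7 and 4 of its genes had an unadjusted p below 0.05, and DESeq2 called 6 lower.

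Of 12 cell surface and matrix partners, 4 rose and 1 fell, with a median of 0.14. Cd93, an endothelial receptor that binds Igfbp7, rose by 2.48 ± 0.37 on the log2 scale (edgeR, adjusted p = 0.0116). It was at 15.8, 27.2 and 10.7 CPM in high fat high sugar replicates 1, 2 and 3 and at 3.28, 3.79 and 2.49 CPM in chow replicates 1, 2 and 3, and as for Igfbp7 replicate 2 was the highest. Hspg2 (1.07 ± 0.20), Thbs1 (2.93 ± 0.73) and the integrin gene Itgb3 (0.93 ± 0.20) rose too. Thbs1 was 1.90 without high fat high sugar replicate 2. It missed the threshold with no filter on low counts, limma-voom and the replicate block, and without any 1 chow library. Itgb3 missed it with the replicate block and without any 1 chow library. Tmem219, which encodes a receptor of Igfbp3, fell by 0.58 on the log2 scale (SE 0.12; edgeR, adjusted p = 0.0210), or by 0.30 with library size only, where it did not pass. It also missed the threshold with the replicate block and without high fat high sugar replicate 1 or any 1 chow library. With chow replicate 1 or 2 left out 2 of the list rose and 0 fell, and with chow replicate 3 left out edgeR called 0, with 5 at an unadjusted p under 0.05.

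The genes most like each member were found by Pearson's r of log2 CPM over the 6 libraries, among 10645 other tested genes. The points share their libraries and the 2 diets, and the values are a description of the nearest of many genes. Nearest to Igfbp7 were Miga1 (0.999), Dtx3 (0.998) and Prkch (0.998), all of which rose. Nearest to Igfbp3 were Ltbp4 (0.992), Pofut1 (0.981) and Rere (0.981). For Igfbp4 they were Wdr83os (0.997), Polr2k (0.994) and Aup1 (0.994), and for Igfbp2 Mllt10 (0.994), Mosmo (0.993) and Ube3a (0.990). Igfbp5 was nearest to Nkrf (0.981), Dopey2 (0.978) and Gtf2h3 (0.978), and Igfbp1 to Gmfg (0.984), Fmo2 (0.978) and Ppp1r14b (0.977).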

How the data were processed

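Per the submitters' processing notes, STAR was the aligner and mm10 the build. For the counting program, annotation and strand setting, the sources used here give nothing. Per the labels' protocols the kit marks strand. The deposited tables hold raw counts for each gene symbol. Rows for reads outside genes (7.74% to 10.6% of all counts) and for reads fitting several genes (0.615% to 0.862%) were left out.

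Genes were filtered with filterByExpr (minimum count 10), scaled by TMM and tested for diet with edgeR's robust quasi-likelihood test, adjusted by Benjamini-Hochberg over 12949 genes (edgeR 4.0.16, limma 3.58.1, DESeq2 1.42.0, R 4.3.3). The SE is the size of the log2 fold change over the root of the F statistic. CPM levels were computed from the deposited counts, and lengths are GENCODE M21 coding-transcript exon unions. Counts of 3 per library, or per group for ratios, were the floor, and counting intervals cover counting error only. Every pair of libraries of a diet differed by more than sampling noise (chi-square per gene of at least 24.9).

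The members and gene lists were chosen with earlier results of these data known. All members are named, with the pathway genes past the threshold, a fixed set of IGF axis genes and the 3 genes most like each member (mean count at least 50). Trib3, Irs2, G6pc, Nr1i3, Col1a1, Col3a1, Myh11, Plg, F2, Ctgf, Stc1 and Polr2b were chosen after their values were seen. Transferrin had no row under the symbol listed. Alternatives were other scalings, no filter, DESeq2, limma-voom, a replicate block and leaving out each library. The fit was tested on counts simulated with edgeR's fitted spread, with 100 genes changed 2-fold and 100 changed 4-fold. There edgeR made 8 false calls among 163, DESeq2 22 among 176 and limma-voom 6 among 163. Of the 2-fold changes edgeR and DESeq2 each recovered 57% and limma-voom 58%.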

Additional observations from a re-analysis of the deposited data

How the results depend on the processing

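The 6 tested Igfbp genes kept their direction under all alternatives run, and Igfbp7 its call in all but the fit without chow replicate 3, where the number of higher members was 0 (edgeR, with 2 members at an unadjusted p under 0.05). DESeq2 raised the number of lower members to 3, with log2 fold changes of -0.77 for Igfbp2, -0.64 for Igfbp4 and -1.37 for Igfbp5, and of lower genes in all to 1006. It also made more false calls than edgeR on simulated data, which cannot rank the tools on the real data, as given above. With each library left out, the log2 fold change ranged from 0.01 to 1.94 for Igfbp1, -0.92 to -0.55 for Igfbp2, 0.40 to 0.88 for Igfbp3, -0.75 to -0.54 for Igfbp4, -1.69 to -0.81 for Igfbp5 and 1.03 to 1.35 for Igfbp7. Higher members then numbered 0 to 1, lower members 0 to 1, all higher genes 4 to 1664 and all lower genes 2 to 772. Library size alone gave 200 lower genes, and turned Foxo1 to 0.046. Igf2r, near 0, ranged from -0.050 to 0.18 with each library left out, at -0.026, -0.049 and -0.050 where high fat high sugar replicate 1, chow replicate 1 or chow replicate 3 was missing. The causes were not tested. Replicate numbers are shared by the diets, and the labels do not say whether they pair libraries. Correlations of deviations between same-numbered libraries were -0.25, -0.17 and 0.03. They show no pairing but cannot exclude it with 3 libraries a diet. A replicate block gave 961 higher and 282 lower genes, with Igfbp7 the 1 member called. Of 17 pathway genes past the threshold, 1 (Fgf21) kept its call when chow replicate 3 was left out, 6 when chow replicate 2 was and 7 when chow replicate 1 was. For Igfbp6, with few counts that differed widely between libraries, the log2 fold change with no filter was -0.68 ± 0.91 (SE).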
